A study of Mus musculus with 6 samples.

Results

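Macrophage identity rests on a small set of lineage transcription factors and on the surface and secreted proteins they keep expressed. The 9 genes described here are the identity markers Csf1r, Adgre1, Lyz2 and Aif1 and the lineage factors Spi1, Cebpa, Cebpb, Maf and Runx1. They were taken by symbol, 1 row each, from a table of 55401 genes measured by sequencing of ribosomal RNA-depleted total RNA in mouse bone-marrow-derived macrophages. These are phagocytes grown from marrow precursors, here over 7 days in medium that held L929 culture medium, the supernatant of a fibroblast line used as a source of the growth factor CSF1. The L-OHP group (n = 3) received 5 µM L-OHP for 12 h, L-OHP being the usual abbreviation of the platinum drug oxaliplatin. The L-OHP+FUC group (n = 3) received 250 µg/ml fucoidan, a sulfated polysaccharide of brown algae, for 12 h and then 5 µM L-OHP for 12 h. Both groups thus carried the drug, and they are called below the libraries with the drug alone and with fucoidan first. Untreated cells and cells given fucoidan alone were not analysed here. The labels give no strain, age or sex, and do not say whether replicates came from separate animals or cultures, so the p-values rest on a spread between libraries that may be technical only.

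In marrow, the ETS factor PU.1, encoded by Spi1, drives precursors towards the myeloid fate together with RUNX1 and C/EBPα, and turns on Csf1r, the receptor for CSF1 on which macrophages depend for survival. C/EBPβ takes over from C/EBPα in many mature and activated macrophages, and c-MAF, encoded by Maf, restrains the self-renewal of mature macrophages and is linked to anti-inflammatory programmes. Adgre1 encodes the F4/80 antigen, Lyz2 encodes lysozyme M and Aif1 encodes the calcium- and actin-binding protein IBA1, all widely used to identify mouse macrophages.

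Macrophages given fucoidan before the drug carried less Aif1 and Maf mRNA and more Csf1r, Spi1 and Cebpa mRNA. Aif1 stood at 0.410 times and Maf at 0.529 times its mean L-OHP level in FPKM (fragments per kilobase of transcript, scaled to library size). Spi1 stood at 1.53 times, Csf1r at 1.38 times and Cebpa at 1.33 times. When each library was left out in turn, Csf1r and Spi1 lost their calls in 3 of 6 cases and Cebpa in 5 of 6. The calls of Aif1 and Maf held in all 6. Cebpb, Adgre1, Lyz2 and Runx1 did not pass the test. All 9 genes were above the minimum for testing (0.5 FPKM in at least 3 libraries), and limma on log2(FPKM + 1), adjusted over all 12084 tested genes at 0.05, called 3 of 9 higher and 2 of 9 lower. Of all tested genes 7.67% were called higher and 19.3% lower, 27.0% in all, which is 927 and 2335 genes. This split depended on scaling, with 1565 higher and 1359 lower under quantile normalization, 1581 and 1680 under median ratio rescaling and 1389 and 1437 after a correction for GC content and length. The libraries of the groups did not overlap for 3 of 9 genes in the higher and 3 of 9 in the lower direction (16.1% and 30.9% of tested genes, 47.0% in all). The median log2 fold change of the 9 genes was -0.15, and that of all tested genes was -0.10.

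**Figure D1:**
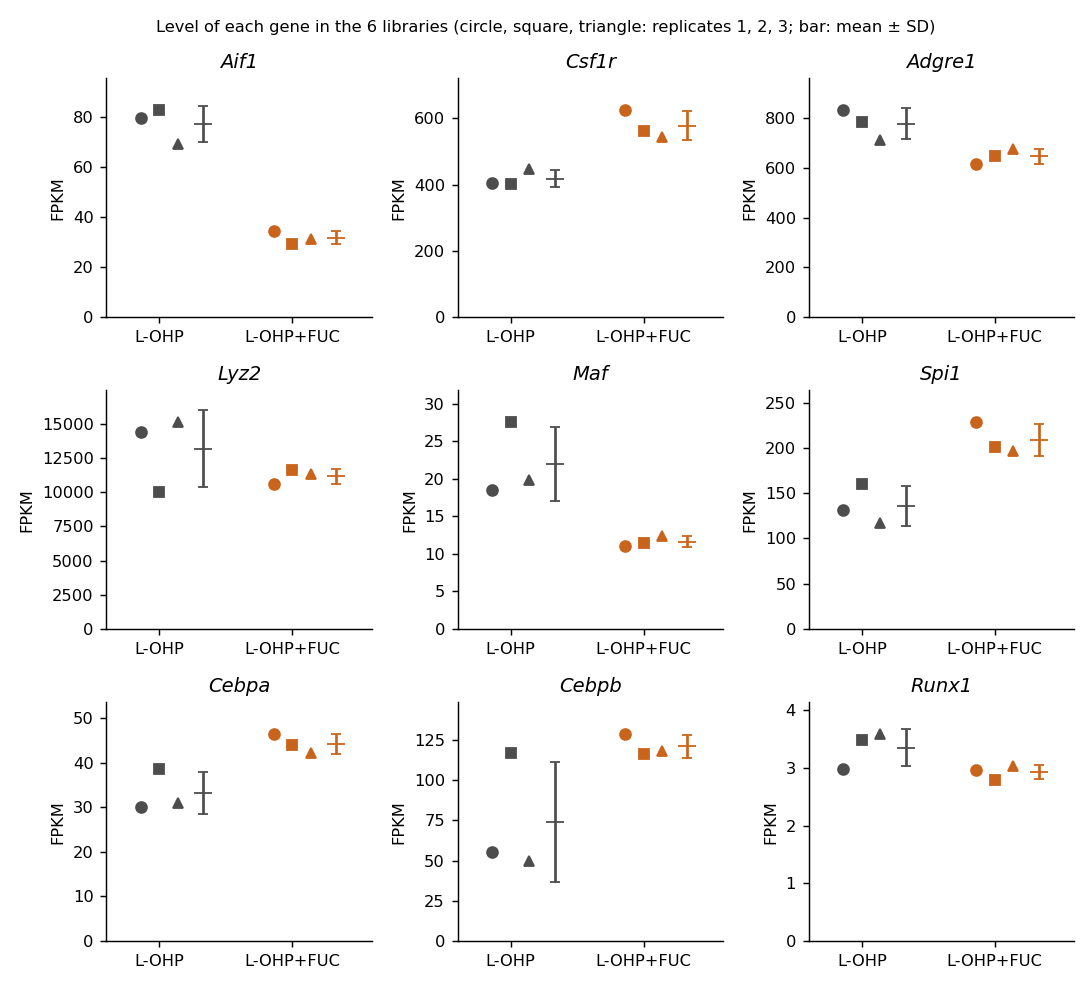
FPKM of each of the 9 genes (vertical axes, linear and starting at 0) in the 3 L-OHP (grey) and 3 L-OHP+FUC (orange) libraries, with the mean and SD beside the points. Aif1 and Maf lie lower and Csf1r, Spi1 and Cebpa higher in every L-OHP+FUC library, while Cebpb in L-OHP replicate 2, at 117 FPKM, lies at the level of the L-OHP+FUC libraries.

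The implied depth was 15700000 to 18600000 fragments per library, and no read counts were recovered. It took the commonest low value, scaled for length, within a preset range as 1 fragment. That range bounds the depth that could be found, so the estimate is no independent measure of depth. As a check of the labelled cell type, 24 of 28 other macrophage markers were above the minimum for testing, as were 12084 of all 55401 genes. So were 5 of 7 fibroblast and 3 of 6 osteoclast genes, against 1 of 8 dendritic cell and 0 of 7 erythroid genes. Passing this low minimum thus does not by itself name a cell type. The lysosomal protein Cd68 stood at 845 to 1277 FPKM. The T-cell CD3 chains Cd3e, Cd3d and Cd3g, the neutrophil genes Ly6g, Retnlg and Cxcr2, the dendritic-cell growth factor receptor Flt3 and the mast-cell genes Fcer1a, Ms4a2 and Mcpt4 were listed at 0 in all 6 libraries. These genes were singled out because they were at 0, as 3 of 8, 3 of 11, 1 of 8 and 3 of 5 genes of their lists. Others of these lists were detected, among them Cd4 at 2.04 to 5.58, Mmp8 at 3.81 to 11.9, S100a8 at 2.41 to 4.71 and Itgax at 38.1 to 51.9 FPKM. In bulk RNA, fewer cells of a type and less RNA per cell cannot be told apart.

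Among the surface markers, Csf1r, on chromosome 18 (61100598 to 61132149 of mm10), stood at 404, 401 and 448 FPKM in libraries 1 to 3 with the drug alone and at 627, 561 and 545 FPKM in libraries 1 to 3 with fucoidan first. Every L-OHP+FUC library was above every L-OHP library. The mean went from 418 ± 26.3 to 578 ± 43.3 FPKM (SD, n = 3), a log2 fold change of 0.47 (SE 0.11, limma adjusted p = 0.0233). The call was lost without L-OHP replicate 1, L-OHP+FUC replicate 1 or L-OHP+FUC replicate 2 (adjusted p = 0.0832 to 0.0854), and with quantile normalization (log2 fold change 0.37, adjusted p = 0.0737) or without a filter (0.0726). Hmgxb3, on the opposite strand, shares 15.1% of the exonic bases of Csf1r and stood at 2.48 to 2.95 FPKM.

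Adgre1, the F4/80 adhesion receptor on chromosome 17 (57358691 to 57483527), had 835, 786 and 712 FPKM with the drug alone and 616, 646 and 678 FPKM with fucoidan first. The groups did not overlap, but the gap between the closest libraries was small beside the spread within the L-OHP group. The log2 fold change was -0.26 (SE 0.11, 95% interval -0.53 to 0.00) and did not pass (limma adjusted p = 0.120). Adgre1 and Csf1r stood closer in level with fucoidan first. In the L-OHP group Adgre1 stood at 777 ± 61.7 against 418 ± 26.3 FPKM for Csf1r without overlap, and in the L-OHP+FUC group at 646 ± 31.0 against 578 ± 43.3 FPKM with overlap (SD, n = 3). The change of this ratio between the groups was not tested.

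Lyz2, on chromosome 10 (117277331 to 117282321), was the most abundant of the 9 and of all tested genes in each L-OHP library, and held 3.29% to 4.89% of the summed FPKM of a library. It stood at 14442, 10005 and 15185 FPKM with the drug alone and at 10591, 11655 and 11324 FPKM with fucoidan first. L-OHP replicate 2 was the lowest of all 6 and the other L-OHP libraries were the highest, so that the groups overlapped. The log2 fold change was -0.22 (SE 0.22, 95% interval -0.73 to 0.30, limma adjusted p = 0.483). Quantile normalization gave -0.45 (SE 0.12, adjusted p = 0.0397). Its close paralog Lyz1, with which reads can be shared, stood at 21.1 to 34.9 FPKM. The Lyz2 promoter is shown because it holds matches to motifs of lineage factors described here.

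The sequences below are the 250 bases before the RefSeq start site, in build GRCm38.p6 (the assembly of mm10), printed 5′ to 3′ on the strand of the gene. Of the 9 genes, 5 had an entry in the promoter table. Each window was searched on both strands for PU.1 (AGGAAGT), C/EBP (TTGCNNAA), RUNX (TGTGGTT) and a MAF half-site (TGCTGAC), and matches are in capitals. A match describes the letters only. These motifs occurred in 7.69%, 9.56%, 4.40% and 3.81% of all 32851 promoter windows of this length. Lyz2 (chromosome 10, 117282273 to 117282522, minus strand) held a PU.1 match (ACTTCCT) that starts 100 bases and a RUNX match (AACCACA) that starts 67 bases before the start site, both on the reverse strand, and the matches do not overlap.
Lyz2: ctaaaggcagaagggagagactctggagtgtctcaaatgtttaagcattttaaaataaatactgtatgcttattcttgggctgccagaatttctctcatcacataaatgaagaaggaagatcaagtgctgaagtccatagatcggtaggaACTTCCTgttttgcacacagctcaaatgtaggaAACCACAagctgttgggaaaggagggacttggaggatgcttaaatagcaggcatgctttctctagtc

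Aif1, which encodes the IBA1 protein of membrane ruffles and phagocytic cups on chromosome 17 (35170991 to 35176068), showed the largest change of the 9. It stood at 79.7, 82.9 and 69.1 FPKM with the drug alone and at 34.3, 29.3 and 31.3 FPKM with fucoidan first. Every L-OHP+FUC library lay far below the lowest L-OHP library. Its level fell from 77.2 ± 7.21 to 31.6 ± 2.49 FPKM (SD, n = 3), a log2 fold change of -1.26 (SE 0.11, limma adjusted p = 0.00339). The call held without each library in turn (adjusted p = 0.00623 to 0.0230) and after the correction for GC content and length (log2 fold change -1.13, adjusted p = 0.00291). Among tested genes ranked by level, Aif1 went from the 95.3rd to 95.9th percentile with the drug alone to the 88.1st to 89.5th with fucoidan first. No other annotated gene overlaps Aif1. Its upstream window (chromosome 17, 35176053 to 35176302, minus strand) is shown because Aif1 moved most, and held none of the 4 motifs.
Aif1: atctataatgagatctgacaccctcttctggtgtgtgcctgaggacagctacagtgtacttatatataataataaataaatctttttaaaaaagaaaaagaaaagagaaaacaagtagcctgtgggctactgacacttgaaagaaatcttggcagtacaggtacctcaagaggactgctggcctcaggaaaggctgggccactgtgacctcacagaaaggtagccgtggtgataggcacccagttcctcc

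**Figure D2:**
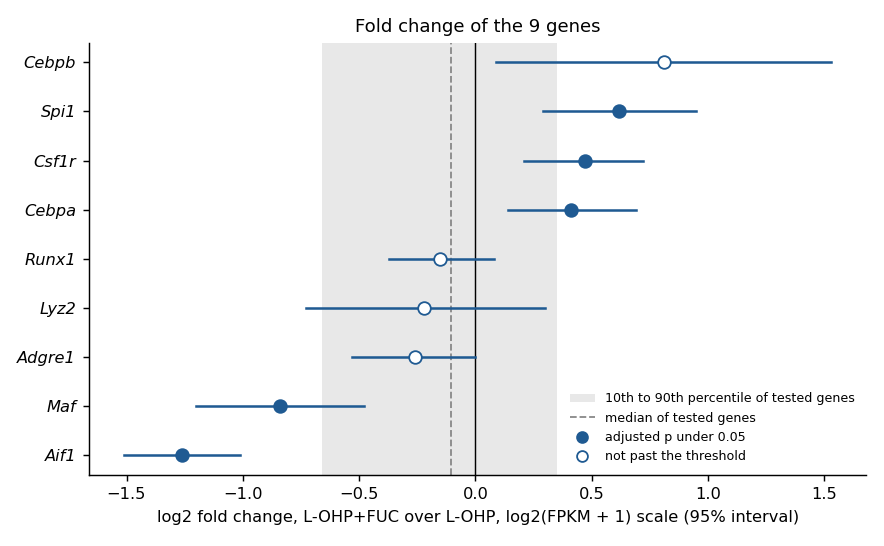
Log2 fold change of L-OHP+FUC over L-OHP on the log2(FPKM + 1) scale (horizontal axis) for the 9 genes, with 95% intervals, filled where the limma adjusted p is under 0.05. The grey band spans the 10th to 90th percentile of all tested genes (-0.66 to 0.35), and Aif1 and Maf lie below it while Cebpa, Csf1r, Spi1 and Cebpb lie above it.

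Among the lineage factors, Spi1, the PU.1 gene on chromosome 2 (91082390 to 91115756), stood at 131, 160 and 117 FPKM with the drug alone and at 229, 201 and 196 FPKM with fucoidan first. All 3 L-OHP+FUC libraries were above the highest L-OHP library, which was replicate 2. The mean rose from 136 ± 22.2 to 209 ± 17.6 FPKM (SD, n = 3), a log2 fold change of 0.62 (SE 0.14, limma adjusted p = 0.0205). The call was lost without L-OHP replicate 1, L-OHP+FUC replicate 1 or L-OHP+FUC replicate 2 (adjusted p = 0.0675 to 0.0758) and without a filter (0.0518). Corrected for GC content and length, Spi1 kept its call with 0.46 (SE 0.10, adjusted p = 0.0195).

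Cebpa, the C/EBPα gene on chromosome 7 (35119293 to 35121928), stood at 30.0, 38.6 and 30.9 FPKM with the drug alone and at 46.5, 44.0 and 42.1 FPKM with fucoidan first. The groups did not overlap, and L-OHP replicate 2 was again the highest of its group. The mean rose from 33.2 ± 4.75 to 44.2 ± 2.17 FPKM (SD, n = 3), a log2 fold change of 0.41 (SE 0.12, limma adjusted p = 0.0404). This call held without L-OHP replicate 2 (0.0128) and was lost without any other single library (L-OHP replicate 1 or 3, L-OHP+FUC replicate 1, 2 or 3; adjusted p = 0.0676 to 0.127). It was also lost without a filter (0.0766) and after the GC and length correction, where the log2 fold change was 0.22 (SE 0.07, adjusted p = 0.0576).

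Cebpb, the C/EBPβ gene on chromosome 2 (167688915 to 167690418), stood at 55.0, 117 and 49.9 FPKM with the drug alone and at 129, 116 and 118 FPKM with fucoidan first. L-OHP replicates 1 and 3 lay far below the L-OHP+FUC libraries, whereas L-OHP replicate 2 lay among them. With all libraries, the log2 fold change was 0.81 (SE 0.30, 95% interval 0.09 to 1.53) and did not pass (limma adjusted p = 0.0891). Without L-OHP replicate 2 it was 1.19 (SE 0.09, adjusted p = 0.00623), and without another single library it was 0.59 to 0.84 with no call. In the authors' deposited table the fold of Cebpb was 1.64 with a q-value of 0.0136. Tmem189, on the opposite strand, shares 20.7% of the exonic bases of Cebpb, and stood at 57.1, 59.7 and 56.7 FPKM with the drug alone and at 50.5, 81.9 and 55.1 FPKM with fucoidan first.

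The genes described here also differed in base composition. The GC content of the longest transcript was 67.2% for Cebpb, 62.6% for Cebpa, 58.9% for Spi1 and 54.5% for Csf1r, against 51.4% for Aif1, 48.3% for Lyz2, 47.4% for Maf, 47.2% for Adgre1 and 46.4% for Runx1. Among the 426 tested genes with a GC content of at least 60%, the median deviation from the gene mean was -0.16, 0.14 and -0.15 log2 units with the drug alone and 0.13, 0.04 and 0.02 with fucoidan first (libraries 1 to 3 of each). L-OHP replicate 2 was above the other L-OHP libraries both in the median of GC-rich genes and in Cebpb, by less in the former. For the 3149 genes under 45% GC the deviations were 0.15, 0.07 and 0.22 with the drug alone and -0.25, -0.18 and -0.01 with fucoidan first. After the GC and length correction Cebpb had a log2 fold change of 0.66 (SE 0.19, adjusted p = 0.0520). The part of base composition in the Cebpb value of L-OHP replicate 2 was not tested. The upstream windows of Cebpb (chromosome 2, 167688665 to 167688914, plus strand, 81.6% GC) and Cebpa (chromosome 7, 35119043 to 35119292, plus strand, 66.4% GC) are shown for their composition, against a median of 52.4% GC over all promoter windows and 43.6% for Aif1. Neither window held any of the 4 motifs.
Cebpb: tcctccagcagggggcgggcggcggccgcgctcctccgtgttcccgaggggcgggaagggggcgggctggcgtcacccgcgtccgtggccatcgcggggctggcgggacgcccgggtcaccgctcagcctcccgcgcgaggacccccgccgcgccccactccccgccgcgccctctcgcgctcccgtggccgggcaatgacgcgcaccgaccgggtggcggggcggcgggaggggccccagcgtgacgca
Cebpa: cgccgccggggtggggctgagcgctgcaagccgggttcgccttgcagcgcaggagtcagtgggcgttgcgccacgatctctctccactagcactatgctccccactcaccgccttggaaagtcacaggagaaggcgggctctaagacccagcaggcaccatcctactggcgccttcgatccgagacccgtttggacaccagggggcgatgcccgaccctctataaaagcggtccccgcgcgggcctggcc

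The ratio of Cebpb to Cebpa does not depend on the scaling of a library, since both genes share it. In FPKM the ratio was 1.83, 3.02 and 1.62 with the drug alone and 2.78, 2.64 and 2.80 with fucoidan first. L-OHP replicate 2 had the highest ratio of all, so the groups overlapped. The log2 ratio, with 1 added to each FPKM, was 1.03 ± 0.47 with the drug alone and 1.43 ± 0.05 with fucoidan first (SD, n = 3), a difference of 0.40 that the exact two-sided permutation test did not separate (p = 0.4, where 3 against 3 allows no p below 0.1). Without L-OHP replicate 2 the difference was 0.67.

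Maf, on chromosome 8 (115682942 to 115707794), was at 18.5, 27.6 and 19.8 FPKM with the drug alone and at 11.1, 11.4 and 12.4 FPKM with fucoidan first. L-OHP replicate 2 stood apart as the highest, and all L-OHP libraries were above all L-OHP+FUC libraries. Its level fell from 22.0 ± 4.89 to 11.6 ± 0.668 FPKM (SD, n = 3), a log2 fold change of -0.84 (SE 0.15, limma adjusted p = 0.0122). The call held without each library in turn (adjusted p = 0.0102 to 0.0496), and without L-OHP replicate 2 the log2 fold change was -0.68. After the GC and length correction it was -0.62 (SE 0.15, adjusted p = 0.0319). With that correction and same-numbered libraries treated as blocks, Maf lost its call (limma adjusted p = 0.0605).

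Runx1, on chromosome 16 (92601466 to 92826149), was the least abundant of the 9, at 2.99, 3.48 and 3.60 FPKM with the drug alone and at 2.97, 2.79 and 3.03 FPKM with fucoidan first. The groups overlapped, with a log2 fold change of -0.15 (SE 0.10, 95% interval -0.37 to 0.08, limma adjusted p = 0.282). The sign depended on scaling, being 0.06 under quantile normalization and 0.07 after the GC and length correction. Cbfb, which encodes the partner that RUNX proteins need to bind DNA firmly, was called higher (25.3, 23.6 and 28.1 FPKM against 32.2, 32.2 and 33.2 FPKM; log2 fold change 0.33, limma adjusted p = 0.0358), and was chosen after its values were seen. That call held only without L-OHP replicate 3 and was lost without any other library (L-OHP replicate 1 or 2, L-OHP+FUC replicate 1, 2 or 3; adjusted p = 0.0536 to 0.110). The antisense genes Gm15655, Gm45091 and Gm26626 share 5.3%, 1.9% and 0.9% of the exonic bases of Maf, Cebpa and Runx1 and stood at 0.509 FPKM or less, and without the use of strand reads of such pairs cannot be told apart.

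Because FPKM is scaled for length, the 9 levels can be ordered. In the L-OHP group the order was Lyz2, Adgre1, Csf1r, Spi1, Aif1, Cebpb, Cebpa, Maf and Runx1, and the libraries of neighbours overlapped only for Aif1 and Cebpb. In the L-OHP+FUC group Aif1 stood below Cebpa, in seventh place, and only Adgre1 and Csf1r overlapped. The percentile of Maf among tested genes went from 81.7 to 86.7 with the drug alone to 72.3 to 74.1 with fucoidan first. In the authors' deposited table, 4 of 9 had a q-value under 0.05 as higher (Csf1r, Spi1, Cebpa and Cebpb) and 2 of 9 as lower (Aif1 and Maf), where 9.93% and 12.9% of the genes tested here did so. The median of all tested genes moved from -0.10 to 0.03 with quantile normalization, and relative to the median of -0.10 the log2 fold changes were -1.16 for Aif1, -0.74 for Maf, 0.51 for Cebpa, 0.57 for Csf1r, 0.73 for Spi1 and 0.91 for Cebpb.

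**Figure D3:**
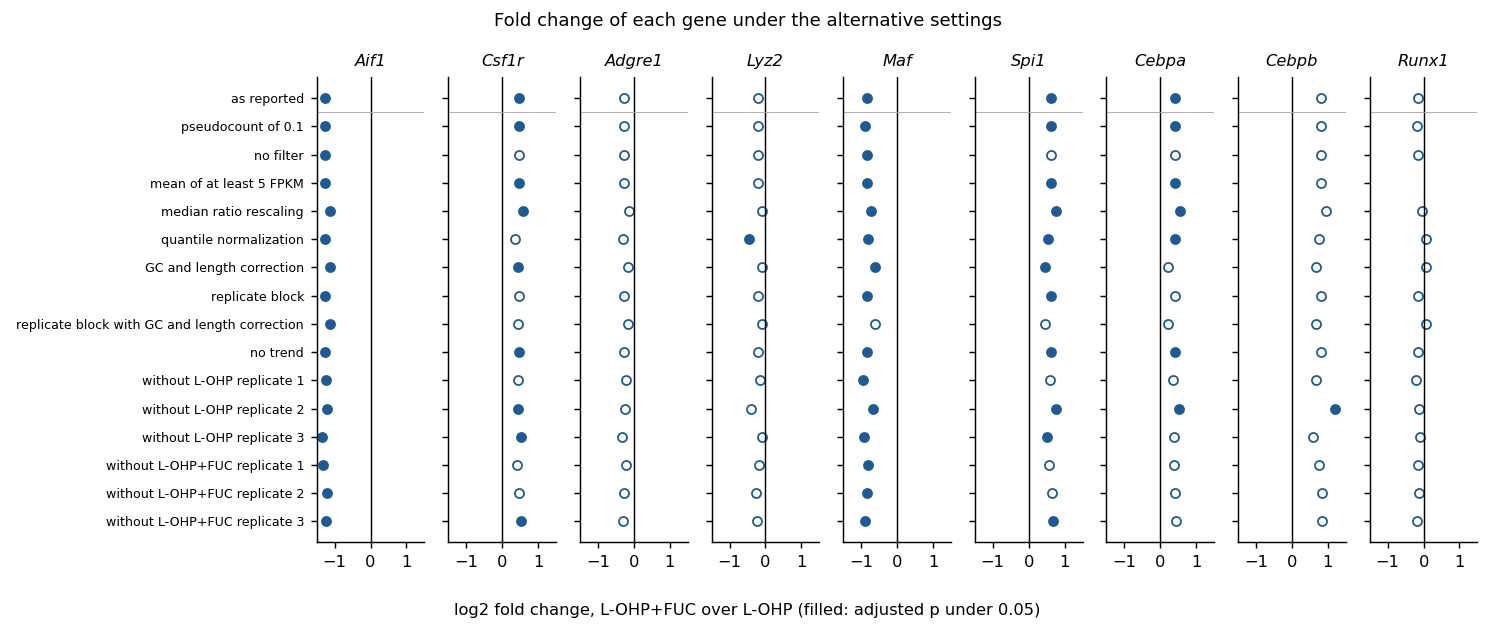
Log2 fold change of each of the 9 genes (horizontal axes, L-OHP+FUC over L-OHP) under each alternative setting (rows), filled where the limma adjusted p is under 0.05. Aif1 is called in every row, Cebpb only without L-OHP replicate 2, and Csf1r, Spi1 and Cebpa lose their calls when L-OHP replicate 1, L-OHP+FUC replicate 1 or L-OHP+FUC replicate 2 is left out.

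Of the other macrophage markers, 1 of 24 tested rose, 5 fell and 18 did not pass, with a median log2 fold change of -0.25. This is 25.0% called, where 27.0% of all tested genes were. Mertk, a receptor for apoptotic cells, fell from 49.0, 48.7 and 53.7 FPKM to 29.2, 30.7 and 29.7 FPKM (log2 fold change -0.74, SE 0.08, limma adjusted p = 0.00432). Its groups were far apart, and the call held without each library in turn (adjusted p = 0.00824 to 0.0268). The high-affinity IgG receptor Fcgr1 stood at 152, 175 and 112 FPKM and at 93.1, 83.3 and 90.6 FPKM (log2 fold change -0.69, limma adjusted p = 0.0268). The signalling chain Fcer1g that pairs with it stood at 794, 764 and 708 FPKM and at 541, 583 and 583 FPKM (-0.41, limma adjusted p = 0.0308).

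Both groups were separated for Fcgr1 and Fcer1g, but both calls were lost without L-OHP replicate 1 or any 1 of the L-OHP+FUC replicates 1 to 3 (adjusted p = 0.0602 to 0.0932 for Fcgr1 and 0.0682 to 0.110 for Fcer1g). Both were also lost after median ratio rescaling (0.0515 and 0.0960), and Fcer1g after the GC and length correction (log2 fold change -0.24, adjusted p = 0.111). Timd4, a phosphatidylserine receptor of resident macrophages, was at 0.980, 0.746 and 0.968 FPKM and at 0.188, 0.302 and 0.504 FPKM (log2 fold change -0.52, limma adjusted p = 0.0249). It lost its call without L-OHP replicate 1 or 3 or L-OHP+FUC replicate 1 or 2 (0.0658 to 0.0827). The fifth lower gene was Ptprc, the CD45 phosphatase (39.4, 38.2 and 38.6 FPKM to 18.1, 25.5 and 31.8 FPKM; log2 fold change -0.64, limma adjusted p = 0.0455), chosen after its values were seen. Ptprc kept its call only without L-OHP+FUC replicate 3, lost it without any 1 of L-OHP replicates 1 to 3 or L-OHP+FUC replicates 1 and 2 (0.0741 to 0.115), and had a log2 fold change of -0.23 after the GC and length correction (adjusted p = 0.233).

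Adgre4, a relative of F4/80, was the 1 marker called higher, at 1.59, 1.26 and 1.70 FPKM against 2.35, 2.69 and 3.34 FPKM (log2 fold change 0.59, SE 0.13, limma adjusted p = 0.0204). Its groups did not overlap, though the call was lost without L-OHP replicate 1 or L-OHP+FUC replicate 2 (0.0583 to 0.0664). The 3 most abundant markers did not pass. The cysteine protease Ctss stood at 5359 ± 791 and 4239 ± 267 FPKM (SD, n = 3; limma adjusted p = 0.186), the pore-forming Mpeg1 at 1265 ± 91.3 and 1106 ± 44.8 FPKM (adjusted p = 0.251) and Cd68 at 1086 ± 210 and 1216 ± 63.4 FPKM (adjusted p = 0.451). Ctss passed as lower without L-OHP replicate 2 (log2 fold change -0.46, adjusted p = 0.0410), and quantile normalization called both Ctss and Mpeg1 lower (adjusted p = 0.0366 and 0.0278).

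**Figure D4:**
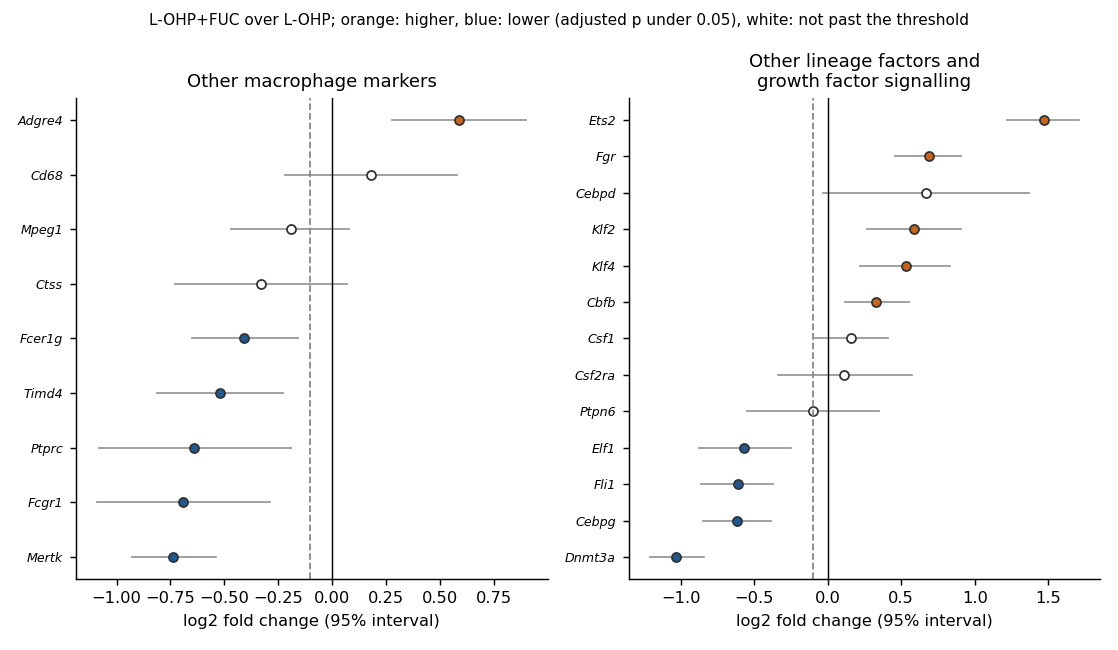
Log2 fold change of L-OHP+FUC over L-OHP with 95% intervals (horizontal axes) for the genes of both lists that the text names, orange where called higher, blue where called lower and white otherwise, with the median of all tested genes dashed. Ets2 (1.47) and Dnmt3a (-1.03) lie at the ends of the right panel, and Adgre4 (0.59) and Mertk (-0.74) at those of the left panel.

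Of the other lineage factors and growth factor signalling genes, 5 of 37 tested rose, 7 fell and 25 did not pass, with a median log2 fold change of 0.00. That is 32.4% called, against 27.0% of all tested genes. Ets2, an ETS factor that acts downstream of CSF1 signalling, rose from 7.23, 7.95 and 6.16 FPKM to 21.5, 20.9 and 21.6 FPKM (log2 fold change 1.47, SE 0.10, limma adjusted p = 0.00200). All 3 L-OHP+FUC libraries were far above any L-OHP library, and the call held without each library in turn (adjusted p = 0.00425 to 0.0192). Fgr, a Src-family kinase of myeloid cells, rose from 14.3, 14.3 and 16.4 FPKM to 25.5, 25.6 and 23.0 FPKM (log2 fold change 0.69, SE 0.09, limma adjusted p = 0.00690), and its call held without each library too.

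Dnmt3a, a DNA methyltransferase that restrains stem cell self-renewal, fell from 16.2, 16.7 and 16.4 FPKM to 7.16, 7.85 and 7.65 FPKM (log2 fold change -1.03, SE 0.08, limma adjusted p = 0.00252). The spread within each group was small beside the gap. Others that fell were Cebpg, a C/EBP family member without an activation domain (log2 fold change -0.62, SE 0.10; limma adjusted p = 0.00907), and the ETS factor Fli1 (10.9, 11.8 and 10.5 FPKM to 6.06, 7.09 and 7.58 FPKM; limma adjusted p = 0.0103). These 3 calls held without each library in turn. The ETS factor Elf1 also fell (log2 fold change -0.57, limma adjusted p = 0.0234), and lost its call without L-OHP replicate 1 or 3 or L-OHP+FUC replicate 1 or 2 (0.0583 to 0.0735).

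The Krüppel-like factors Klf2 and Klf4, which promote monocyte differentiation or quiescence, rose with log2 fold changes of 0.59 and 0.53 (limma adjusted p = 0.0221 and 0.0272). Neither was called after the GC and length correction (log2 fold change 0.41 for Klf2 and 0.42 for Klf4). Klf2 also lost its call without L-OHP replicate 1 or 3 or L-OHP+FUC replicate 1 or 3, and Klf4 without L-OHP replicate 1 or L-OHP+FUC replicate 2 or 3 (adjusted p = 0.0516 to 0.0887). The CSF1 ligand itself, Csf1, stood at 5.05, 6.45 and 5.30 FPKM and at 6.22, 6.16 and 6.66 FPKM (log2 fold change 0.16, limma adjusted p = 0.295). The GM-CSF receptor subunit Csf2ra, with 104 to 165 FPKM, and the phosphatase Ptpn6, with 171 to 280 FPKM, were among the most abundant of the list and did not pass (limma adjusted p = 0.690 and 0.724).

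For Csf1r and Cebpb, the 3 genes with the closest pattern over the 6 libraries were sought among 5565 others with a mean of at least 5 FPKM, by the mean absolute difference of deviations from the gene mean on the log2(FPKM + 1) scale. With so many genes and only 6 libraries, close matches are found by the search itself. Sec31a, a coat protein of vesicles leaving the endoplasmic reticulum, was nearest to Csf1r (difference 0.0181), followed by the acyl-CoA dehydrogenase Acads (0.0278) and the lysosomal exonuclease Pld3 (0.0281). Jund, an AP-1 subunit, was nearest to Cebpb (0.0675), followed by the C/EBP gene Cebpd (0.0728) and Scand1 (0.105).

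Cebpd repeated the pattern of Cebpb at a lower level, with 3.81, 9.34 and 3.76 FPKM with the drug alone and 9.20, 8.24 and 9.02 FPKM with fucoidan first. L-OHP replicate 2 was the highest of all 6 for Cebpd, slightly above the L-OHP+FUC libraries. Jund was at 51.4, 105 and 52.1 FPKM and at 135, 112 and 116 FPKM, with a GC content of 67.1%. The longest transcript had 68.4% GC for Scand1 and 51.6% for Cebpd. Without L-OHP replicate 2 all 3 were called higher, with log2 fold changes of 1.21 for Jund, 1.04 for Cebpd and 1.03 for Scand1 (limma adjusted p = 0.00623, 0.00623 and 0.00959). With all libraries and the GC and length correction, Jund (limma adjusted p = 0.0260) and Scand1 (0.0495) were called. Cebpd was not (0.149), and its log2 fold change was 0.67 with and without the correction. The part of base composition in these patterns was not tested.

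**Figure D5:**
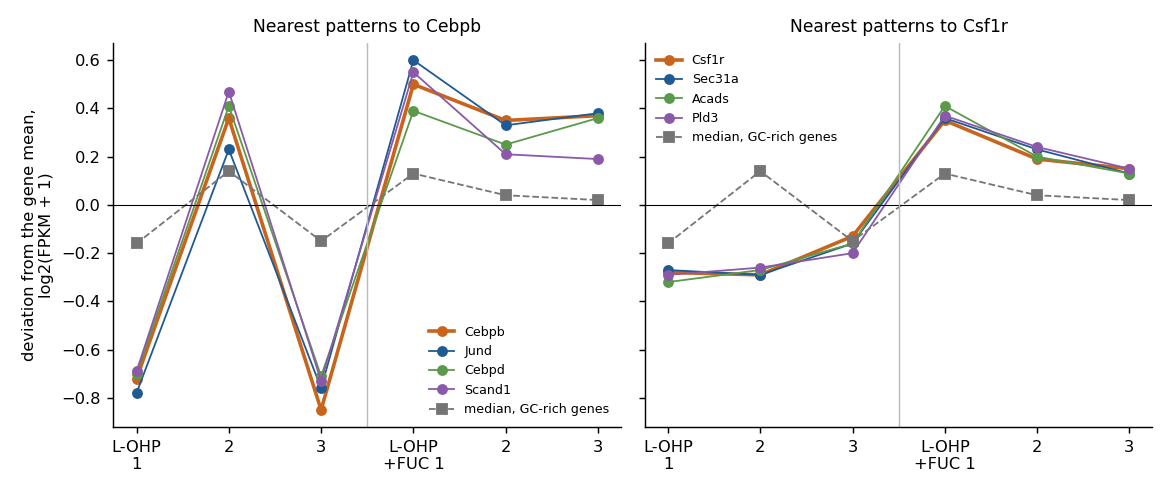
Deviation from the gene mean on the log2(FPKM + 1) scale (vertical axis) in each library (horizontal axis) for Cebpb and Csf1r with their 3 nearest genes, and the median of genes with at least 60% GC (dashed). Lines only join the values of a gene, as replicates have no order. In L-OHP replicate 2 the Cebpb group lies above 0 (0.23 to 0.47) while Csf1r and its neighbours lie below 0.

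Among markers of other cells, 11 neutrophil genes were summed. They came to 8.07 to 12.8 FPKM with the drug alone and 14.7 to 17.6 with fucoidan first, most of it Mmp8 and S100a8. S100a9, below the minimum for testing, had means of 0.309 FPKM with the drug alone and 0.352 FPKM with fucoidan first. Of the neutrophil genes 1 of 3 tested rose, where 7.67% of all tested genes did. That gene was S100a8 (2.41, 2.89 and 2.43 FPKM against 3.72, 4.71 and 4.25 FPKM; limma adjusted p = 0.0162), which lost its call without L-OHP replicate 1 or L-OHP+FUC replicate 2 (0.0589 to 0.0651). Mmp8 was at 5.11, 3.81 and 9.04 FPKM and at 8.14, 9.76 and 11.9 FPKM and did not pass (limma adjusted p = 0.0988). It passed in 4 of 17 alternative settings. Among these were leaving out L-OHP replicate 3 (adjusted p = 0.0245), the GC and length correction (0.0431) and the looser threshold of 0.1. The 6 osteoclast genes summed to 52.7 to 56.9 and 70.4 to 85.5 FPKM, and 1 of 3 tested rose, where 7.67% of all tested genes did. That gene was the acid phosphatase Acp5 (26.4, 23.2 and 20.9 FPKM to 52.9, 48.2 and 43.4 FPKM; log2 fold change 1.01, limma adjusted p = 0.00479). Ctsk, with means of 29.5 and 29.8 FPKM, and Dcstamp, with 1.63 and 1.28 FPKM, did not pass (limma adjusted p = 0.969 and 0.582). The part of these neutrophil and osteoclast genes in the values of the 9 genes was not tested.

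The 8 T and NK cell genes summed to 3.70 to 5.65 FPKM and 2.07 to 2.47 FPKM, nearly all of it Cd4 (4.95, 3.65 and 5.58 FPKM to 2.43, 2.04 and 2.04 FPKM; log2 fold change -0.84, limma adjusted p = 0.0111), while Cd3e, Cd3d and Cd3g were listed at 0. The 6 B cell genes summed to 1.26 to 1.53 and 0.653 to 1.27 FPKM. The 1 tested gene, Cd79b, at only 0.178 to 1.03 FPKM, fell (log2 fold change -0.51, limma adjusted p = 0.0258). Of all tested genes 19.3% were called lower. The Cd79b call was lost without L-OHP replicate 1 or 3 or L-OHP+FUC replicate 2 or 3 (0.0603 to 0.0888). Cd79a, below the minimum for testing, had means of 0.354 FPKM with the drug alone and 0.581 FPKM with fucoidan first. Sums of 8 dendritic cell genes were 38.3 to 49.2 and 39.7 to 52.1 FPKM, nearly all Itgax, which encodes CD11c (limma adjusted p = 0.646). Sums were 2.42 to 3.63 and 3.17 to 4.12 FPKM for 8 monocyte genes and 5.18 to 12.4 and 7.77 to 8.21 FPKM for 7 fibroblast genes. Erythroid, mast cell and progenitor genes summed to at most 1.10 FPKM in any library.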

How the data were processed

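RNA of 6 libraries, 3 per group by the labels' titles, was analysed from a single table of 55401 genes. The submitters' processing notes name mm10, bcl2fastq 2.0, StringTie, HISAT2, limma and DESeq2, without roles, and the use of strand is not given in the sources used here. Values were FPKM deposited by the authors, with 0.0001 standing for 0 and read as 0 here. The deposited fold is the ratio of mean FPKM in all 55401 rows, and the deposited log2 value is its log2. The authors also deposited p-values and q-values, with no tool named.

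The 12084 genes that reached 0.5 FPKM in 3 or more of 6 libraries were tested with limma 3.58.1 (R 4.3.3) on log2(FPKM + 1), group as the only term, with an intensity trend, two-sided, and Benjamini-Hochberg adjustment at 0.05. A fold change on this scale understates the change of low genes. Where a symbol named several rows, the higher mean was used. No count test was run, since FPKM hold no counts. The implied depth of 15700000 to 18600000 fragments came from low values in 21953 genes with 1 transcript. Only values within a preset range could be taken as 1 fragment, which bounds this depth. The 9 genes, both lists and the markers were chosen with earlier results of these data known. From each list the text names the 4 smallest p in each direction and the 3 highest means, and from the markers some of the 2 highest of each list. Some genes that these rules name are counted but not reported here. Coordinates, GC content and lengths are of GENCODE M21 (GRCm38), and promoters of RefSeq. The correction for GC content and length subtracted loess trends (span 0.3, 4 iterations) of each library's deviations from the gene means. Same-numbered libraries had correlations of -0.0365, -0.0711 and 0.0827 between their deviations, so the numbers were not taken as pairs. Weak correlations cannot exclude that same-numbered libraries shared an animal or culture. The code was tested on simulated data.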

Additional observations from a re-analysis of the deposited data

How the results depend on the processing

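At an adjusted p of 0.01 rather than 0.05, 165 of all tested genes were called higher and 472 lower, with 0 and 1 of the 9 genes, 0 and 1 of the other macrophage markers and 2 and 2 of the lineage and growth factor list. At 0.1, 1436 of all tested genes, 3 markers and 8 of the lineage list were higher. Without a filter, 24828 genes were tested, against 12084, and 561 of them were called higher and 1520 lower. Of the 9 genes 0 were higher. The calls higher and lower were 0 and 1 for the markers and 2 and 3 for the lineage list. A minimum mean of 5 FPKM left 5917 tested genes, of which 754 were called higher and 966 lower. It gave 0 markers higher and 3 of the lineage list higher. Median ratio rescaling gave 1581 of all genes higher, against 927, and 1680 lower. It gave 3 markers higher and 2 lower and 9 of the lineage list higher. Quantile normalization gave 1565 higher and 1359 lower, against 2335, and the GC and length correction 1437 lower. Without the variance trend 3 markers and 912 of all genes were higher. Leaving out a library gave 266 to 1121 of all genes higher and 835 to 2256 lower, the lowest without L-OHP+FUC replicate 2 and the highest without L-OHP replicate 2. It gave 0 to 4 of the 9 genes higher and 2 lower throughout, 0 to 2 markers higher and 1 to 5 lower, and 2 to 7 of the lineage list higher and 3 to 7 lower. Log2 fold changes that turned sign, of which none was called, were 0.06 for Runx1 and -0.02 for Cd68 by quantile normalization, 0.07 for Runx1 and -0.04 for Csf2ra by the GC and length correction, 0.03 for Ptpn6 by median ratio rescaling, and, when a library was left out, up to 0.05 for Ptpn6 (-0.30 to 0.05, the highest without L-OHP replicate 2) and down to -0.02 for Csf2ra (-0.02 to 0.32, the lowest without L-OHP replicate 3). The cause of these differences was not tested.

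The labels do not say whether same-numbered libraries are pairs, and not every library correlated best with its own number. With a replicate block, 554 of all genes were higher and 1762 lower. Of the 9 genes 1 was higher, and 2 markers were lower. Csf1r and Cebpa lost their calls with the block (limma adjusted p = 0.0669 and 0.0694). With the block and the GC and length correction, 648 of all genes were higher and 800 lower. Of the 9 genes 0 were higher and 1 lower, and 1 marker was lower. The gene still called was Aif1 (limma adjusted p = 0.0267). Maf (log2 fold change -0.62, adjusted p = 0.0605) and Spi1 (0.46, adjusted p = 0.0605) lost their calls. In the lineage list 3 were higher and 2 lower. Runx1 then had 0.07 and Csf2ra -0.04. The difference in the log2 ratio of Cebpb to Cebpa was 0.40 with the block and 0.22 to 0.67 when a library was left out. Since depth was implied only within a preset range, few statements can be made on genes near 0.5 FPKM.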

Other observations

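Some markers of tissue macrophages and of other lineages were at or near 0, and these genes were singled out because of their low values. Other markers of the same lists were well above 0, among them Siglec1 at 59.0 to 78.8 FPKM and Marco at 83.4 to 141 FPKM. Cd163, a haemoglobin scavenger receptor, stood at 0.0380 FPKM or less in every library, and Clec4f, a Kupffer cell lectin, was listed at 0 in all 6. The fractalkine receptor Cx3cr1 was at 0.397, 0.231 and 0.334 FPKM with the drug alone and at 0.168, 0.212 and 0.190 FPKM with fucoidan first. The peritoneal macrophage factor Gata6 and the granulocyte factor Cebpe were listed at 0 in all libraries. Myb, a progenitor factor, was at 0.179, 0.151 and 0.0434 FPKM with the drug alone and at 0.00607, 0.0140 and 0.00686 FPKM with fucoidan first. Cd163, Clec4f, Cx3cr1, Gata6, Cebpe and Myb were below the minimum for testing.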
